A study of Mus musculus with 8 samples.

Results

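The cohesin subunit genes followed here were the meiotic genes Rec8, Stag3 and Smc1b and the mitotic genes Smc1a, Smc3, Rad21, Stag1 and Stag2. They were taken by symbol, each matched 1 Ensembl identifier, and they made up 8 of the 21553 genes with values. Each library held poly(A) RNA of 40 whole mouse embryos pooled from 3 independent experiments, with B6CBA F1 crosses given as the strain. The 2-cell groups, collected 24 h after injection, had received mRNA for Snrpb and Snrpd2 together, for Snrpb, for Snrpd2 or for mCherry, a fluorescent protein that served as the control. The 1-cell groups, collected 5 h after injection, had received the same 4 mRNAs. All embryos, the controls included, were thus injected as 1-cell embryos. Snrpb and Snrpd2 encode core proteins of the spliceosome. Each of the 8 conditions had 1 library, so the spread between embryos and between experiments was not measured.

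Cohesin is a ring that holds sister chromatids together and folds chromosomes into loops. The SMC proteins Smc1a or Smc1b pair with Smc3, a kleisin (Rad21 in mitotic rings, Rec8 in meiotic rings) closes the ring, and a STAG protein (Stag1 or Stag2, or the meiotic Stag3) binds the kleisin. In mouse oocytes Rec8-containing cohesin holds the chromosomes together until the meiotic divisions, while the fertilized egg loads Rad21-containing rings for its mitotic divisions. Smc3 belongs to both kinds of ring.

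Promoter windows are shown for the 3 meiotic genes and for Stag1, the mitotic gene with the largest rise at the 2-cell stage. Of the meiotic genes, Stag3 and Smc1b are known to be kept silent in mouse somatic cells through E2F6. TTCCCGC is a core motif of E2F factors. The windows run 5′ to 3′ from 250 bases before to 50 bases after the annotated start, from RefSeq on GRCm38.p6, and capitals mark TTCCCGC.
Rec8, chr14:55617916-55618215, plus strand: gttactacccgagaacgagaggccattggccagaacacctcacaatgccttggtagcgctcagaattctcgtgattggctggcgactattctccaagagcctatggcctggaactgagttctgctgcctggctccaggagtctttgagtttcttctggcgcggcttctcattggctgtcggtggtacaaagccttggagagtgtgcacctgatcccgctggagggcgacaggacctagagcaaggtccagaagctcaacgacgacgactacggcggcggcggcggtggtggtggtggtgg
Stag3, chr5:138280259-138280558, plus strand: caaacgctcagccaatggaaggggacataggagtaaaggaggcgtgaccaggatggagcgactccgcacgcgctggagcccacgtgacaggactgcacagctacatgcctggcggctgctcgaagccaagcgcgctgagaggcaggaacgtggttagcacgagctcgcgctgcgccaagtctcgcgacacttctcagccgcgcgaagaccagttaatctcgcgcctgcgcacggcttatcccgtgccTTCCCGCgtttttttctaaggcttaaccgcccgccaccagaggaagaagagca
Smc1b, chr15:85131908-85132207, minus strand: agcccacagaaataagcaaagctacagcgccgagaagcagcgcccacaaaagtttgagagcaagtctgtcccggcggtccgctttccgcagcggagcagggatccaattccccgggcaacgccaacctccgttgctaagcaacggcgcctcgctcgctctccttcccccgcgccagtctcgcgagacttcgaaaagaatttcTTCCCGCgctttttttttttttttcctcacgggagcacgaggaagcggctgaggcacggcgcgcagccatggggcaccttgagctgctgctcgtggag
Stag1, chr9:100643198-100643497, plus strand: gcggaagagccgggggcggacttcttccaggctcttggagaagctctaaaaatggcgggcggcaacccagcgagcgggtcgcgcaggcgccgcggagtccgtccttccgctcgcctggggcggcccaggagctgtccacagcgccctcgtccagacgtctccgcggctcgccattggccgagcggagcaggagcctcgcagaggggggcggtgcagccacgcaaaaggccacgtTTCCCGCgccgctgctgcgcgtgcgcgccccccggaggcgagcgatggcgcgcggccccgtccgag
TTCCCGC was searched on both strands. It stood in the windows of Stag3, Smc1b, Smc1a and Stag1, and in neither Rec8 nor Smc3, so 4 of the 6 members in the table held it. Among all 32851 windows of that length 1511 held it, or 4.6%. The motif contains a CpG, and the windows of the 6 members held 18 to 43 CpG, against a median of 7 over all windows, so the members' count and that share come from windows of different base composition. The first base of the motif lay at -3 in Stag3, -48 in Smc1b and -16 in Stag1, counted from the start. These matches are a description of the sequence. Rad21 and Stag2 are named only.

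The 2-cell libraries held 39492734 to 44648717 reads assigned to genes, and the 1-cell libraries 49461122 to 59979046. A count of 3 reads, the limit that a count of 0 allows, corresponded to a CPM (count scaled to the library total) of 0.05 to 0.076. At the 2-cell stage Snrpb stood at 876 and 1704 cRPKM (the authors' reads per kilobase of a fixed length per gene, scaled to the library total) in the libraries that received it, against 17.4 in mCherry. At the 1-cell stage Snrpd2 stood at 9142 and 17926 cRPKM where it was injected, against 1.89 in mCherry. The summed cRPKM of 6 of the 8 listed 2-cell stage markers was 223 to 235 in 2-cell libraries and 9.98 to 13.3 in 1-cell libraries. The 12 oocyte and early embryo markers summed to 5802 to 6819 in 2-cell and 6882 to 7477 in 1-cell libraries. Summed sperm markers were 162 to 193 in 2-cell and 30.9 to 48.8 in 1-cell libraries, mostly Odf2, with Smcp and Spata3 at 0 in both. Summed markers of blood, fibroblasts and oviduct (10 of 11 found) were 56.5 to 90.2 in 2-cell and 9.30 to 26.9 in 1-cell libraries. At the 2-cell stage these were mostly Krt18 (mean 27.7), Krt8 (21.3), Epcam (11.5) and Lyz2 (7.59). The others, among them Ptprc, the collagens and Ovgp1, averaged at most 0.2 there. The part of other cells in the stage differences was not tested. In these pools, a lower level of a transcript in every embryo and its presence in fewer embryos cannot be told apart. All values are scaled between libraries, so a change in total poly(A) RNA per embryo between the stages was not measured.

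Rad21 was the most abundant cohesin transcript and Rec8 the least abundant in all 8 libraries, on the length-corrected cRPKM scale. Rad21, the mitotic kleisin, measured 44.91, 54.53, 35.00 and 42.57 cRPKM in the 2-cell libraries injected with Snrpb and Snrpd2, Snrpb, Snrpd2 and mCherry, against 28.40, 24.32, 30.36 and 25.26 in the 1-cell libraries. Here and below, 4 values of a stage stand in that order of injections. Rec8, the meiotic kleisin, measured 0.08, 0.05, 0.20 and 0.08 cRPKM at the 2-cell stage, from 7, 4, 19 and 7 reads, and 0.04, 0.02, 0.03 and 0.02 cRPKM at the 1-cell stage, from 4, 2, 3 and 2 reads. The groups of Rad21 did not overlap on this scale. Those of Rec8 did not either, though a library of each stage had 4 reads. Smc1b was seventh in every library. At the 1-cell stage Smc3 and Smc1a followed Rad21. At the 2-cell stage Stag1 was second, and Smc3 had rank 5 in all libraries but the Snrpd2 one, where it had rank 3. Stag1, Stag2 and Stag3 overlapped at the 1-cell stage, so their order there did not exceed the spread between libraries.

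**Figure D1:**
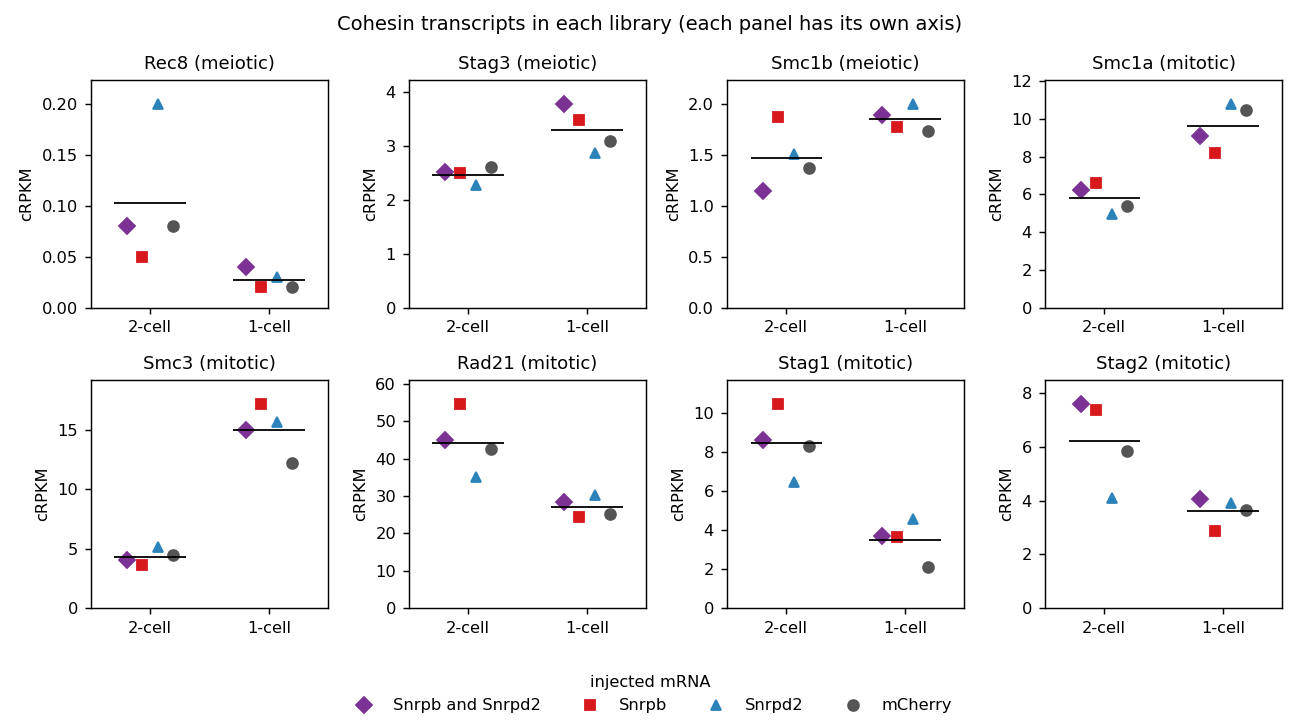
Levels of the 8 cohesin genes in cRPKM (vertical axis, one panel per gene, each with its own axis) in 2-cell and 1-cell libraries. Each point is 1 library, marked by its injected mRNA, and black lines are the means of a stage. The 4 Smc3 points at the 2-cell stage lie between 3.66 and 5.14, all below the 1-cell points at 12.25 to 17.14.

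The SMC subunits fell at the 2-cell stage while the mitotic kleisin and both mitotic STAG genes rose. Smc3 fell most: it measured 4.04, 3.66, 5.14 and 4.47 cRPKM in 2-cell libraries, against 14.98, 17.14, 15.66 and 12.25 in 1-cell libraries. The groups did not overlap, and Smc3 was 4.15-fold lower (log2 change -2.05, SE 0.16, adjusted p = 1.26e-06, edgeR quasi-likelihood test with Benjamini-Hochberg adjustment, n = 4 libraries per stage). The adjusted p-values of this stage comparison all come from that fit of 16264 genes, with the injection as a term, and they measure the spread between differently injected pools. Smc1a measured 6.22, 6.60, 4.95 and 5.41 cRPKM in 2-cell libraries, against 9.12, 8.21, 10.78 and 10.46 in 1-cell libraries. Every 2-cell value lay below every 1-cell value, and the log2 change was -0.99 (SE 0.15, adjusted p = 0.000228).

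Smc1b, the meiotic partner of Smc3, measured 1.15, 1.87, 1.51 and 1.37 cRPKM in 2-cell libraries, against 1.89, 1.78, 2.00 and 1.74 in 1-cell libraries. It fell by 0.61 on the log2 scale (SE 0.18, adjusted p = 0.0119), and the 2-cell Snrpb library overlapped the 1-cell values on the cRPKM scale. That call was lost without either library injected with both mRNAs (adjusted p = 0.0727 and 0.0656), with library totals as the scaling (log2 change -0.35, adjusted p = 0.126) and in both limma fits on cRPKM. Stag3, the meiotic STAG protein, measured 2.51, 2.49, 2.27 and 2.60 cRPKM in 2-cell libraries, against 3.77, 3.48, 2.86 and 3.09 in 1-cell libraries. Its 2-cell values all lay below its 1-cell values, and it fell by 0.67 (SE 0.14, adjusted p = 0.00189).

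Stag1 measured 8.59, 10.42, 6.43 and 8.27 cRPKM in 2-cell libraries, against 3.70, 3.62, 4.57 and 2.12 in 1-cell libraries. It was 2.06-fold higher with no overlap (log2 change 1.04, SE 0.22, adjusted p = 0.00172). Stag2 measured 7.58, 7.36, 4.09 and 5.85 cRPKM in 2-cell libraries, against 4.07, 2.87, 3.91 and 3.64 in 1-cell libraries. It rose by 0.49 on the log2 scale (SE 0.19, adjusted p = 0.0414). Rad21 rose by 0.44 (SE 0.15, adjusted p = 0.0261). After TMM scaling (that of the edgeR fit), the rise of Rad21 and Stag2 held in 3 of 4 injections. Between the Snrpd2 libraries, TMM-scaled 2-cell over 1-cell reads were 0.924 for Rad21 (95% interval 0.891 to 0.959) and 0.839 for Stag2 (0.773 to 0.911). On the cRPKM scale that pair rose for Rad21 (35.00 against 30.36) and Stag2 (4.09 against 3.91), so its direction depended on the scaling. Both calls were lost without any 1 of the 6 libraries not injected with Snrpd2 alone (adjusted p = 0.0729 to 0.157 for Rad21 and 0.0778 to 0.218 for Stag2). Leaving out the 2-cell or the 1-cell library of an injection is nearly the same check, since the other then stands alone in the injection term. Rad21 rose by 0.290 without the 2-cell Snrpb library and by 0.287 without the 1-cell one. For Stag1 the TMM-scaled 2-cell over 1-cell reads differed widely between injections. They ran from 1.13 (95% interval 1.05 to 1.21) for Snrpd2 to 3.39 (3.12 to 3.70) for mCherry. The intervals of the read ratios cover counting error only.

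Rec8 had too few reads for the fit. Pooled over injections it had 37 reads in 2-cell and 11 reads in 1-cell libraries, a scaled ratio of 3.68 (95% interval 1.84 to 7.99), of which the 2-cell Snrpd2 library gave 19 reads. Without that library the ratio was 2.47 (1.11 to 5.79).

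Of the 7 members tested, 3 were higher and 4 were lower at the 2-cell stage, and among all genes tested 38.1% were called higher and 32.0% lower, 70.1% in all. A call by itself therefore does not set a cohesin gene apart. Of the 7 members tested, all but Smc1b had no overlap between the libraries of the stages on the cRPKM scale, against 67.7% of all genes tested. On TMM-scaled CPM all of the 7 but Rad21 and Stag2 had no overlap, against 68.0%. Rec8, not among the genes tested, had no overlap on either scale, with 4 to 19 reads in 2-cell and 2 to 4 reads in 1-cell libraries. Its read counts met at 4, where only the scaling separated the stages. Both meiotic genes tested fell, with a median log2 change of -0.64. The mitotic genes split into 3 that rose and 2 that fell, with a median of 0.44. The median over all genes tested was 0.15, and relative to it Rad21 stood 0.28 higher, Stag2 0.34 higher and Stag1 0.89 higher, while Smc3 stood at -2.21.

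**Figure D2:**
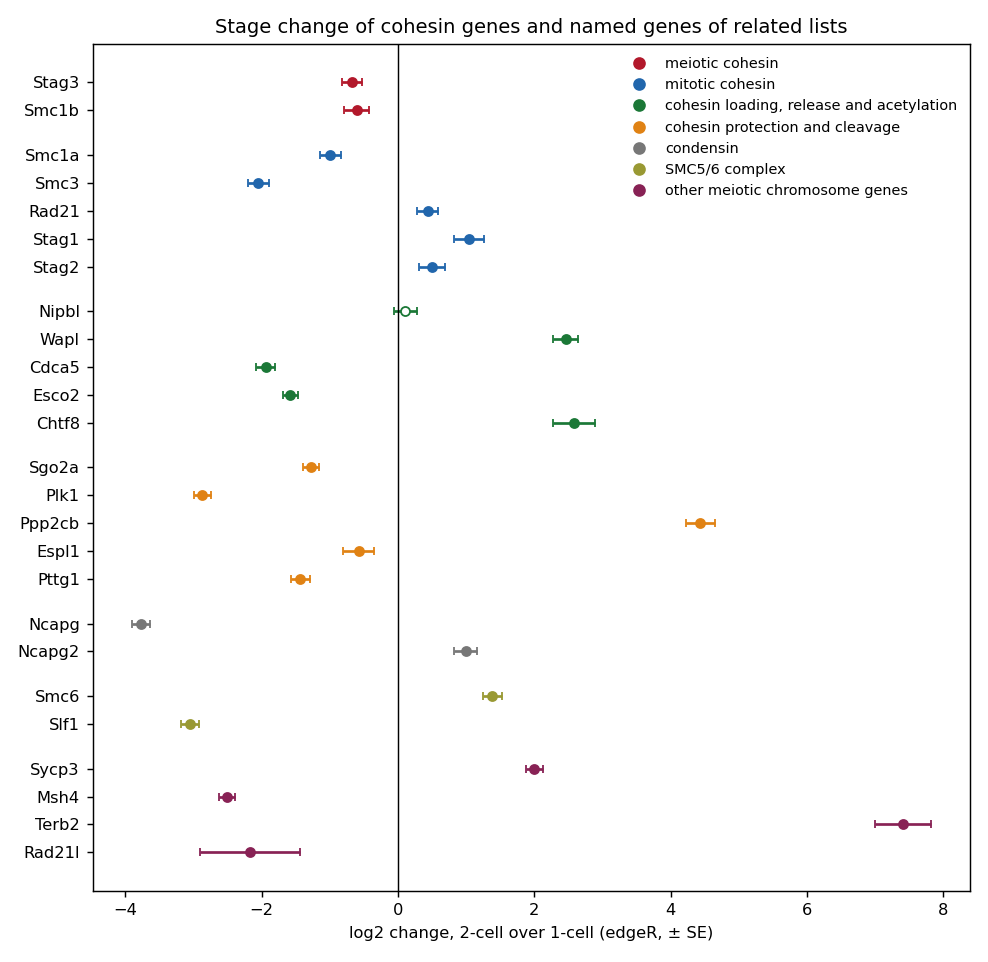
Log2 change from the edgeR fit, 2-cell over 1-cell (horizontal axis), for the 7 cohesin genes tested and the named genes of related lists, with bars of 1 SE and an open symbol for Nipbl, which was not called. Smc3, at -2.05, lies farthest below 0 among the cohesin genes, and Stag1, at 1.04, farthest above.

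Whether meiotic subunits gave way to mitotic ones was compared as a ratio within each library, which does not depend on scaling between libraries. The share of Stag3 among the 3 STAG transcripts was 13.4, 12.3, 17.7 and 15.6% in 2-cell libraries, against 32.7, 34.9, 25.2 and 34.9% in 1-cell libraries. The groups did not overlap, and Stag3 over Stag1 plus Stag2 was 2.72-fold lower at the 2-cell stage, with geometric means of 0.171 and 0.466 in 2-cell and 1-cell libraries (exact permutation test, two-sided, p = 0.0286, n = 4 each, the smallest p this design can give). Smc1b over Smc1a had geometric means of 0.252 and 0.193 in 2-cell and 1-cell libraries, with overlap (log2 difference 0.39, exact permutation p = 0.114). Rec8 over Rad21 had geometric means of 0.00205 in 2-cell and 0.000976 in 1-cell libraries, also with overlap (log2 difference 1.07, exact permutation p = 0.0857), and its numerator rests on 2 to 19 reads. With 0.1 added to both cRPKM values its log2 difference was -0.075 (exact permutation p = 0.743). The added 0.1 exceeds the Rec8 value in every library but the 2-cell Snrpd2 one (0.20), so that difference says little about Rec8. This permutation test does not use the injection that a 2-cell and a 1-cell library share. Within injections, Rec8 over Rad21 was higher at the 2-cell stage in 4 of 4, Smc1b over Smc1a in 3 of 4 and Stag3 over Stag1 plus Stag2 in 0 of 4. With Benjamini-Hochberg adjustment over the 3 ratios, the exact permutation p was 0.0857 for the STAG ratio and 0.114 for the other two. Leaving out each library in turn gave an exact permutation p of 0.0286 to 0.2 for Smc1b over Smc1a, and the same range for Rec8 over Rad21. The smallest p that 4 against 3 libraries allow is 0.0286. It was reached by Smc1b over Smc1a without the 2-cell library with both mRNAs (log2 difference 0.54). Rec8 over Rad21 reached it without the 2-cell Snrpb library (log2 difference 1.45).

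**Figure D3:**
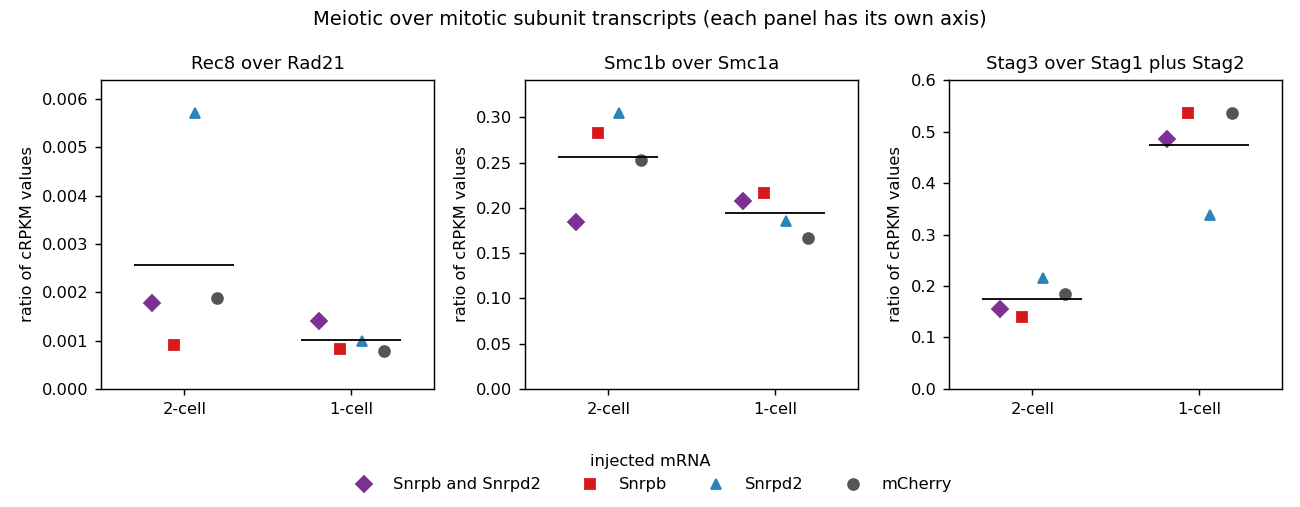
Ratios of meiotic to mitotic subunit cRPKM values (vertical axis, one panel per ratio, each with its own axis starting at 0) in 2-cell and 1-cell libraries. Each point is 1 library and black lines are stage means, and Stag3 over Stag1 plus Stag2 runs from 0.140 to 0.216 at the 2-cell stage and from 0.337 to 0.536 at the 1-cell stage.

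Transcript ratios between subunits of the ring are given as a description, with no measure of protein or of assembled rings. Smc3 over the sum of Smc1a and Smc1b was 0.432 to 0.796 in 2-cell libraries and 1.00 to 1.72 in 1-cell libraries. Rad21 over Smc3 was 6.81 to 14.9 in 2-cell and 1.42 to 2.06 in 1-cell libraries.

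Among 13 factors that load, release and acetylate cohesin, 7 rose, 5 fell and 1 was not called, with a median log2 change of 0.31, where 38.1% of all genes tested rose and 32.0% fell. The lists that follow are to be read against the same shares, and no list was tested against other genes. Wapl, which releases cohesin from chromatin, averaged 134 ± 13.6 cRPKM in 2-cell and 20.9 ± 6.03 cRPKM in 1-cell libraries (SD, n = 4 each), 5.51-fold higher. Chtf8, of the replication clamp loader that aids cohesion, averaged 1.42 and 0.195 cRPKM in 2-cell and 1-cell libraries, 5.98-fold higher. Cdca5 (sororin), which counters Wapl, averaged 83.7 ± 13.8 cRPKM in 2-cell and 266 ± 13.8 cRPKM in 1-cell libraries, 3.84-fold lower. Esco2, which acetylates Smc3, averaged 88.7 cRPKM in 2-cell and 222 cRPKM in 1-cell libraries, 2.99-fold lower. Esco1, which also acetylates Smc3, went the other way, with 222 cRPKM in 2-cell and 63.1 cRPKM in 1-cell libraries, 2.99-fold higher. Nipbl, the loader, averaged 5.67 cRPKM in 2-cell and 4.41 cRPKM in 1-cell libraries and was not called (edgeR adjusted p = 0.580).

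Among 17 genes of cohesin protection and cleavage, 5 rose, 9 fell and 3 were not called (median -0.50), beside 70.1% of all genes called either way. Sgo2a, which shields Rec8 cohesin at centromeres in mouse oocytes, averaged 11.8 and 23.8 cRPKM in 2-cell and 1-cell libraries, 2.42-fold lower. Pttg1 (securin), the inhibitor of separase, averaged 916 cRPKM in 2-cell and 2053 cRPKM in 1-cell libraries, 2.7-fold lower. Espl1 (separase), the protease that cuts the kleisin, averaged 11.8 cRPKM in 2-cell and 15.3 cRPKM in 1-cell libraries, 1.49-fold lower (edgeR adjusted p = 0.0444), and that call was lost in 6 alternatives. Plk1, a mitotic kinase that removes cohesin from chromosome arms, had the largest fall of the list, 7.32-fold, with 47.3 and 290 cRPKM in 2-cell and 1-cell libraries. Ppp2cb, a catalytic subunit of the phosphatase PP2A, had its largest rise, 21.7-fold, with 24.6 cRPKM in 2-cell and 0.98 cRPKM in 1-cell libraries.

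In the lists of the other SMC complexes more genes fell than rose, where 32.0% of all genes tested fell. Of 8 condensin genes 6 fell, 1 rose and 1 was not called (median -1.51). Ncapg averaged 13.6 and 155 cRPKM in 2-cell and 1-cell libraries, 13.6-fold lower, while Ncapg2, of the other condensin complex, averaged 26.1 cRPKM in 2-cell and 11.2 cRPKM in 1-cell libraries, 1.99-fold higher. Of 8 SMC5/6 genes found 6 fell, 1 rose and 1 was not called (median -1.37). Slf1 averaged 3.88 cRPKM in 2-cell and 26.7 cRPKM in 1-cell libraries, 8.29-fold lower, and Smc6 averaged 97.3 cRPKM in 2-cell and 31.5 cRPKM in 1-cell libraries, 2.61-fold higher.

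Other meiotic chromosome genes did not share 1 direction. Of 21 tested among 23 found, 8 rose, 5 fell and 8 were not called (median -0.04), beside 38.1% of all genes higher and 32.0% lower. Sycp3, of the synaptonemal complex, averaged 107 and 22.4 cRPKM in 2-cell and 1-cell libraries, 4.0-fold higher. Terb2, which tethers meiotic telomeres, had 2981 reads in 2-cell and 19 reads in 1-cell libraries (log2 change 7.41). Msh4, of meiotic crossing over, averaged 7.36 cRPKM in 2-cell and 34.9 cRPKM in 1-cell libraries, 5.69-fold lower. Rad21l, a further meiotic kleisin, had 47 and 198 reads in 2-cell and 1-cell libraries (log2 change -2.17, edgeR adjusted p = 0.0233).

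The injections were compared as the 3 Snrp-injected libraries against the mCherry library of the same stage, in an edgeR fit of 16867 genes in which the lone mCherry library is assumed to vary like the others. None of the 8 cohesin genes was called at either stage or for a difference between the stages, and 0.0% of all genes were. At an unadjusted p under 0.05 edgeR held 1 cohesin gene, Stag1, at the 1-cell stage and 0 at the 2-cell stage, against 15.5% of all genes at the 1-cell and 3.78% at the 2-cell stage. For the difference between the stages it held 1, again Stag1, against 9.77% of all genes. DESeq2 called Stag1 alone of the cohesin genes at the 1-cell stage (adjusted p = 0.0233), where it called 534 genes, or 4.35% of those it gave an adjusted p.

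Stag1 stood higher in the 3 injected 1-cell libraries (3.70, 3.62 and 4.57 cRPKM) than in the mCherry library (2.12 cRPKM). The fitted log2 difference was 0.94 (SE 0.28, adjusted p = 0.181 by edgeR, and the largest adjusted p over leaving out 1 library was 0.288). As TMM-scaled ratios of reads over mCherry it was 1.72-fold (95% interval 1.56 to 1.89) with both mRNAs, 1.82-fold (1.66 to 2.00) with Snrpb and 2.21-fold (2.02 to 2.42) with Snrpd2. Past 1.5-fold higher lay 8.91%, 9.68% and 12.1% of all genes in those libraries, and past it either way 13.8%, 16.2% and 21.8%. Stag1 was the 1 member past 1.5-fold in each of them. At the 2-cell stage the fitted difference was -0.00 (SE 0.26), and the difference between the stages was -0.94 (SE 0.37, edgeR adjusted p = 0.454). Summed cRPKM of 16 cumulus and granulosa markers, with Ereg at 0, was 36.3 to 52.9 in the injected 1-cell libraries and 26.6 in the mCherry library, and its part in the Stag1 difference was not tested. Stag1 overlaps 5 other annotated features, 2 of them on the other strand.

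The other members differed less. Smc3 had a fitted log2 difference of 0.42 at the 1-cell stage (SE 0.20, edgeR adjusted p = 0.338), with 14.98, 17.14 and 15.66 cRPKM in injected libraries and 12.25 in mCherry. Leaving Rec8 aside, the other 5 members lay between -0.13 and 0.16 at the 1-cell stage, and 7 members lay between -0.15 and 0.09 at the 2-cell stage. In the 2-cell Snrpd2 library Stag2 was the one member past 1.5-fold, at 0.661 of mCherry (0.611 to 0.716), against 4.91% of all genes past 1.5-fold lower and 13.3% either way, and with library totals as the scaling it no longer passed. Rad21 (0.777) and Stag1 (0.735) were also low in that library. With both mRNAs and with Snrpb, no member passed 1.5-fold at the 2-cell stage, against 11.7% and 14.2% of all genes. No gene of the related lists was called for the injections by edgeR. DESeq2 called 3 of them at the 1-cell stage, all with higher values in the injected libraries: Ppp2r1a, a scaffold subunit of PP2A (log2 difference 0.77, SE 0.19, adjusted p = 0.00489), Smc6 (0.58, SE 0.16, adjusted p = 0.0108) and Esco1, an acetyltransferase of Smc3 (0.62, SE 0.18, adjusted p = 0.0204). Of all genes it gave an adjusted p at the 1-cell stage, DESeq2 called 4.35%. The related lists held 13, 17, 8, 8 and 21 genes tested by edgeR, in the order above. These 3 calls by themselves therefore do not set the lists apart. At the 2-cell stage DESeq2 called 0 genes of the lists and 0.0% of all genes, so that 0 is no result about the lists.

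**Figure D4:**
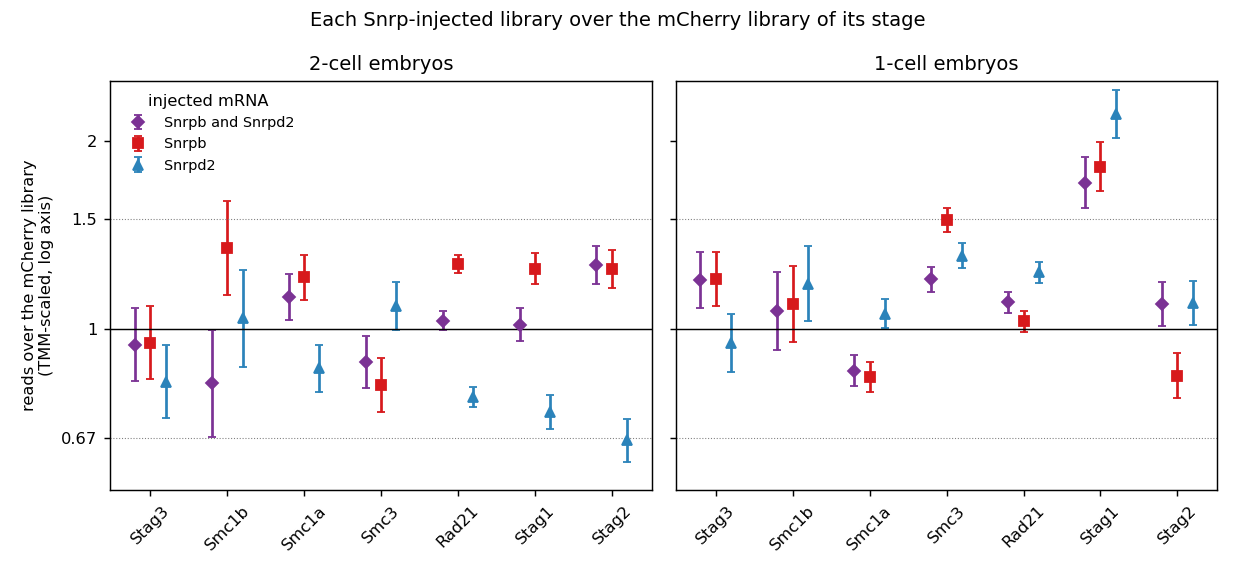
Reads of each Snrp-injected library over the mCherry library of its stage after TMM scaling (vertical log axis) for 7 cohesin genes, 2-cell embryos left and 1-cell embryos right, with 95% counting intervals and dotted lines at 1.5-fold. The 3 Stag1 points of 1-cell embryos, at 1.72, 1.82 and 2.21, lie above the upper line.

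The genes with a profile most like each meiotic member were ranked by Pearson's r of log2(cRPKM + 0.1) over the 8 libraries among 11053 genes, as a description of libraries that share stage and depth. For Stag3 they were Anxa1 (0.954), Ifrd1 (0.950) and AU041133 (0.950). For Smc1b they were Zfp777 (0.949), Rasal2 (0.935) and Tmtc2 (0.928). For Rec8 they were Cpm (0.986), Hcfc1r1 (0.972) and Ttc16 (0.963), on a profile of 2 to 19 reads.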

How the data were processed

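Whole 2-cell and 1-cell embryos were measured as 8 pooled libraries, made with a stranded kit per the labels. The deposited counts are whole reads per gene, and the deposited cRPKM is an RPKM value by the authors. For 2662 genes over 2000 reads it equalled count over a fixed length and the library total within 0.206%. The submitters' processing notes name mm9. For aligner, annotation, strand use and multi-mapping reads nothing was found in the sources used here, so genes that overlap other features (Stag1, Stag2, Smc1a, Smc1b) are uncertain. Of 22667 identifiers, 1114 without values were left out, and 20451 had a GENCODE vM21 symbol.

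edgeR 4.0.16 (R 4.3.3; TMM, filterByExpr, quasi-likelihood test, Benjamini-Hochberg over all genes, called at adjusted p under 0.05) was fitted with stage and injection terms (3 residual degrees of freedom), and with 4 groups of stage by injected or control (4 residual degrees of freedom). Library ratios needed 50 reads in either library and carry exact binomial 95% intervals. Ratios of subunits used an exact permutation test (scipy 1.17.1). Named genes were all members, the largest called rise and fall of each list, and a set of regulators named by role. Alternatives were library totals, median-ratio size factors, TMM without the injected and most-read genes, DESeq2 1.42.0, limma 3.58.1 on log2(cRPKM + 0.1) and log2(cRPKM + 1), no filter, no injection term and leaving out each library. The fits were also run on simulated counts, with a common profile for all libraries and few genes changed. In these data 70.1% of genes tested were called between the stages. That run therefore does not show how the fits behave here. The members and lists were chosen with earlier results of these data known.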

Additional observations from a re-analysis of the deposited data

How the results depend on the processing

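The falls of Smc1a and Smc3 and the rise of Stag1 kept their direction and their call in all 16 alternatives of the stage fit, and no cohesin gene tested turned direction. Stag3 lost its call in 1 of them, limma on log2(cRPKM + 1) (log2 change -0.31, adjusted p = 0.0522), Smc1b in 5, Rad21 in 6 and Stag2 in 7, including the fit with no filter (0.44, adjusted p = 0.0585). Leaving out 1 library gave 4 to 7 cohesin genes called, with 4 without the 2-cell or the 1-cell library injected with both mRNAs. Calls over all genes fell there too. Without that 2-cell library 5617 genes were called higher and 4680 lower of 16791. Without the 1-cell one they were 5569 and 4756 of 16798, against 6198 and 5198 of 16264 in the main fit. Leaving out either library of an injection is nearly the same check in this fit, so these alternatives are not all distinct. Over all genes 6198 rose and 5198 fell with TMM, 7273 and 4161 with library totals, 7467 and 4288 with limma on log2(cRPKM + 0.1), and 7295 and 4276 on log2(cRPKM + 1). The median log2 change was 0.15 with TMM and 0.41 with library totals.

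For the injections at the 1-cell stage, DESeq2 called 1 cohesin gene and 534 genes in all, limma on log2(cRPKM + 0.1) called 1 gene, and leaving out 1 library gave 0 to 3 genes. That limma fit called 2 genes at the 2-cell stage and 1 for the difference between stages, where DESeq2 called 31, an alternative chosen after seeing the data. The cause was not tested. Rec8 over Rad21 turned to -0.075 (exact permutation p = 0.743) with 0.1 added to both cRPKM values, a constant above most Rec8 values. It ranged from 0.57 to 1.45 with 1 library left out. Smc1b over Smc1a ranged from 0.29 to 0.54 and Stag3 over Stag1 plus Stag2 from -1.60 to -1.34. With library totals 0 cohesin genes passed 1.5-fold in the 2-cell Snrpd2 library. The share of all genes past 1.5-fold was not computed with that scaling, so this count cannot be set against other genes. Nipbl, not called, ranged from -0.12 to 0.16 with 1 library left out and stood at 0.37 with library totals (adjusted p = 0.0798). Of the alternative values of the named list genes, 280 kept direction and call, 6 of Espl1 lost it, and 2 of Nipbl turned sign. The stage fit pairs the 2-cell and 1-cell libraries of an injection through its injection term. Without that term it also called 7 cohesin genes, beside 5934 genes higher and 5473 lower of all 15400 tested. No paired analysis was possible for the injections because each condition had 1 library and the labels give no replicate numbers. With 1 library per condition, depth limits Rec8 most, and no spread within a condition was measured.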
